A study of Mus musculus with 8 samples.

Results

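The genes described here encode 9 apolipoproteins, Apoa1, Apoa2, Apoa4, Apoa5, Apob, Apoc3, Apoe, Apoh and Apom, together with Mttp, the microsomal triglyceride transfer protein that loads lipid onto apolipoprotein B. They were taken by name, as array rows annotated to exactly 1 gene symbol equal to a listed name. All 10 had 1 such row each, among 22180 genes with a row of this kind, and all 10 passed the filter on dim genes, which left 15380 genes to test.

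Expression was measured in primary mouse hepatocytes from p16-/- mice (knockout, KO) and from p16+/+ littermates (wild type, WT), with 4 samples and 4 arrays in each group. The labels give no strain, age or sex of the mice, do not describe the deleted allele, and do not say whether each biological replicate came from its own animal, so each p-value reflects the spread of these 8 samples, which may be technical. All cultures had the same handling: after collagenase perfusion they adhered overnight with serum (10%), insulin (100 nM) and dexamethasone (25 nM), and from 16 h after plating they were held for 8 h in medium with 1 mM glucose and 0.1% albumin. RNA was taken at 24 h. Values are log2 array signals after robust multi-array averaging (RMA), so a difference of 1 is 2-fold, and the comparison asks which transcripts differ with the loss of p16, an inhibitor of the cyclin-dependent kinases that drive cell cycle entry.

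Hepatocytes export fat as very low density lipoprotein. Apolipoprotein B is the scaffold of that particle and is lipidated in the endoplasmic reticulum by the transfer protein that Mttp encodes, while apolipoproteins A-I and A-II build high density lipoprotein. The smaller exchangeable apolipoproteins move between particles and set how fast lipases and receptors clear them from blood. The genes Apoa1, Apoc3, Apoa4 and Apoa5 lie side by side on mouse chromosome 9, within 43.3 kb.

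Of the 10 genes, 4 rose in KO hepatocytes, none fell, and the other 6 were not called. The risers were Mttp, Apom, Apoc3 and Apoh, and their changes ran from 0.31 to 0.47 on the log2 scale, which is 1.24-fold to 1.39-fold. Across all genes tested 7.02% were called higher and 6.76% were called lower in KO cells (limma, Benjamini-Hochberg adjusted p under 0.05). The share called higher differed with brightness. It was 3.57% of the 8848 genes with a mean below 6, where no member lies. In the ranges that hold the 10 genes it was 10.5% (6 to 8), 13.7% (8 to 10), 16.3% (10 to 12) and 10.2% (12 or more). The KO mean was above the WT mean for 9 of the 10 genes, against 45.2% of all genes tested. The median change of the 10 was 0.22, against -0.02 over all genes. All 4 KO arrays lay above all 4 WT arrays for 6 genes (Mttp, Apom, Apoc3, Apoh, Apoa1 and Apoa2), and the groups overlapped for the other 4. Over all genes tested, KO arrays all lay above WT arrays for 9.13% and all below for 11.1%. No change among the 10 reached 1.5-fold.

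**Figure D1:**
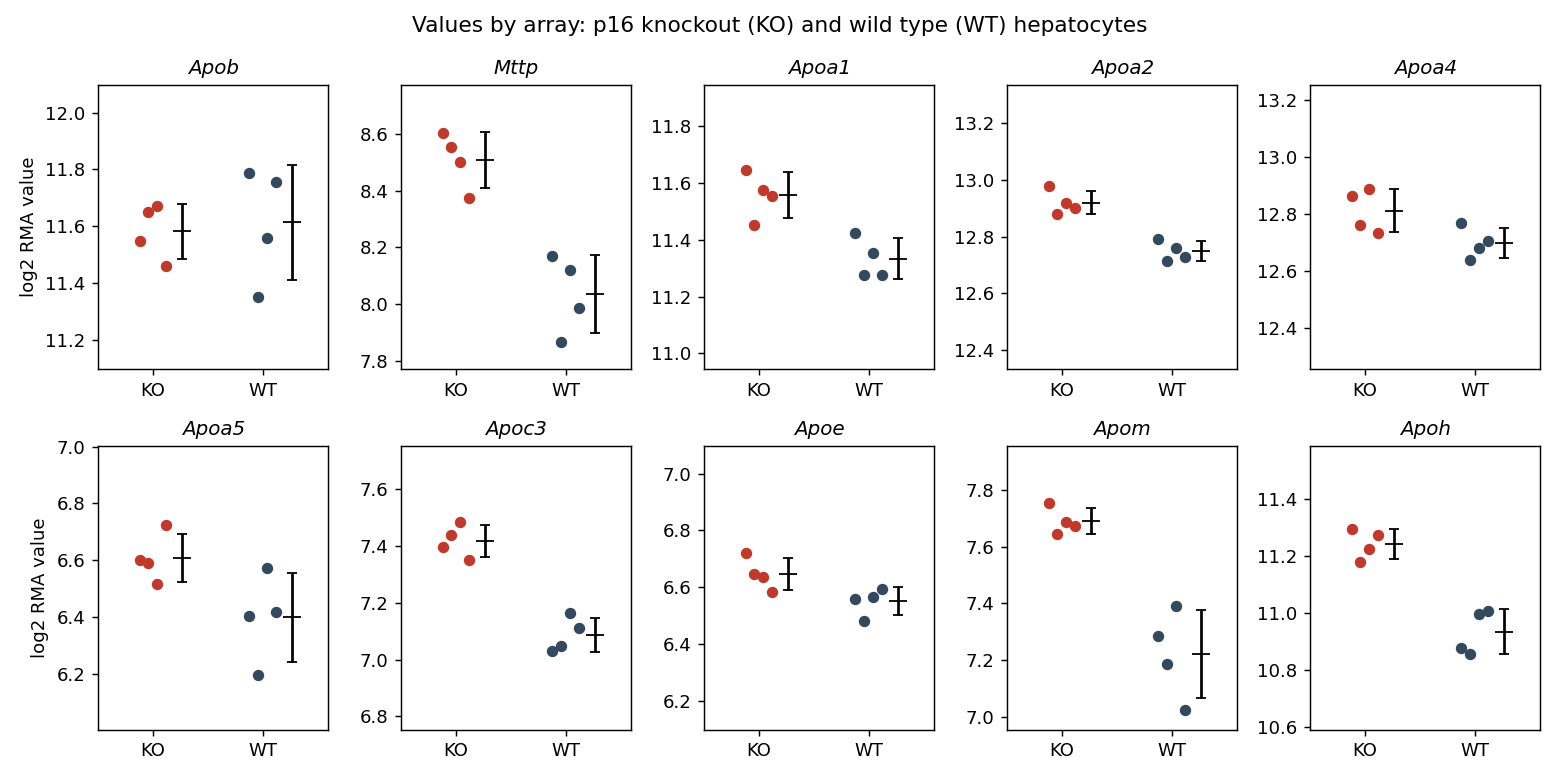
Log2 RMA values of the 10 genes on each array, with KO arrays left of WT arrays in every panel, bars for the mean ± SD (n = 4) and a vertical range of 1 log2 unit throughout. KO and WT points are separate for Mttp, Apom, Apoc3, Apoh, Apoa1 and Apoa2 and overlap for Apob, Apoa4, Apoa5 and Apoe.

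The arrays were closely alike in distribution, with medians of 3.76 to 3.88. The p16 gene Cdkn2a, which also encodes ARF, read 4.28, 4.66, 4.27 and 4.91 on the KO arrays and 4.16, 4.79, 4.48 and 4.68 on the WT arrays. The groups overlapped (change 0.0040, 95% interval -0.37 to 0.38), and where the row's probes lie relative to the deletion is not given in the sources used here, so it does not check the genotype. Markers of mature hepatocytes, fixed as a list of 25 genes, rose for 18 of 21 tested members and fell for none, with a list mean of 8.81 to 8.99 on KO arrays and 7.61 to 7.81 on WT arrays. The brightest of them was Alb, the albumin gene, at 13.57 ± 0.01 in KO and 13.54 ± 0.03 in WT cells (SD, n = 4 each). Only 3 rows were brighter than Alb, which lay 0.09 below the highest value in the table. Whether a ceiling of the scanner compressed its change was not tested. Of the lists for 6 other cell types, 3 had 6 or more members that fell. Among sinusoidal endothelial genes 21 of 24 fell and 1 rose (list mean 4.47 to 4.65 on KO and 5.45 to 5.60 on WT arrays). Among macrophage genes 13 of 18 fell and 1 rose (4.63 to 4.68 and 5.33 to 5.48). Among stellate cell genes 6 of 17 fell and 1 rose (4.41 to 4.53 and 4.94 to 5.03), while 10 did not pass. On the other 3 lists 0 of 4 cholangiocyte genes, 1 of 5 leukocyte genes (lower) and 0 of 2 red cell genes were called. The hepatocyte, endothelial, macrophage and stellate shifts run with the genotype on every array beside each result below, and their part in those results was not tested. In whole cultures a smaller share of a cell type cannot be told apart from less of its RNA per cell.

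Promoter windows are shown for the risers held in the RefSeq table (Mttp, Apom and Apoh) and, for contrast, for Apob, which did not change detectably. Each runs 5′ to 3′ along the gene's strand from 250 bases before to 50 bases after the transcription start in build GRCm38.p6. Mttp is at chr3:138143369-138143668 on the minus strand, Apom at chr17:35131752-35132051 on the minus strand, Apoh at chr11:108395047-108395346 on the plus strand and Apob at chr12:7977427-7977726 on the plus strand. Capitals mark matches to the motif letters given after the sequences.
Mttp: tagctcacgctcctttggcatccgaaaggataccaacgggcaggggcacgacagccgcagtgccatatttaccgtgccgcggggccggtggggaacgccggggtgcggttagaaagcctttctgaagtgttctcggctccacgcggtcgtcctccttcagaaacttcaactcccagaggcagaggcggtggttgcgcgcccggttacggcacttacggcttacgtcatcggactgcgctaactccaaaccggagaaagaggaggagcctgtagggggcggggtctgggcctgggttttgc
Apom: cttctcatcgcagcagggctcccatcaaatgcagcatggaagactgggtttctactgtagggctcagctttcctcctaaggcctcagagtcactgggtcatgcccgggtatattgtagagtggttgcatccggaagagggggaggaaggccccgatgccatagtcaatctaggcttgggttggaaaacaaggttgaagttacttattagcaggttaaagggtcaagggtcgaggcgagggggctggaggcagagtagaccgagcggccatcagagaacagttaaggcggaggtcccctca
Apoh: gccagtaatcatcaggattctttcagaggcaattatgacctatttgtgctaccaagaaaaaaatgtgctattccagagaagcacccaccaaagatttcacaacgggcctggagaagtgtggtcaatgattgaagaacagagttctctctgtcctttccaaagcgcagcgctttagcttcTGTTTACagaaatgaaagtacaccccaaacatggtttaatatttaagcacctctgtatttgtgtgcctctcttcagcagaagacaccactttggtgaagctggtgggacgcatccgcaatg
Apob: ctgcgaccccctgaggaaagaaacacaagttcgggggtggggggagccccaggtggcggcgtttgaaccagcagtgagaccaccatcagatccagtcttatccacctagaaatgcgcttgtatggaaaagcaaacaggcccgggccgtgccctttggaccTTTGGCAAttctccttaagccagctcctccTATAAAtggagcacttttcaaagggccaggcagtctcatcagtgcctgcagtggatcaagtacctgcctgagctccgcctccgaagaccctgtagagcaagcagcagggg

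Of the 10 genes, 9 matched the promoter table by symbol, with 13 windows between them because Apoa2, Apoa5 and Apoe have several starts, and the Apoa5 windows overlap and share their TATA match. Apoc3 has no entry. Both strands were searched for 6 short motifs of liver and general promoters, written here on 1 strand: HNF4 as CAAAGTCCA, part of a nuclear receptor element (DR1) as CAAAGGTCA, FOX as TGTTTAC, part of an HNF1 site as GTTAAT, C/EBP as TTGCNNAA and the TATA box as TATAAA. In the Apoh window the FOX letters stand at position -71 relative to the start. The Apob window holds the C/EBP letters on the opposite strand at position -90 and the TATA letters at position -60. These positions count from the start used for that window, which lies downstream of the Apob gene start at 7977629. No letters were matched in the Mttp and Apom windows. Over all 13 windows the FOX letters were found in 3, against 3.65% of all 32851 promoter windows, the TATA letters in 5 (13.6% of all), the C/EBP letters in 2 (10.8% of all) and the HNF1 letters in 1 (7.10% of all). The HNF4 letters (0.475% of all) and the DR1 letters (0.478% of all) were in none of them. In 1 Apoe window a pair of TATA matches on opposite strands overlap each other. A match describes the letters of the window and is no evidence of a bound site.

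The partners of particle assembly differed in their values. Mttp (chr3:138089855-138143418) read 8.60, 8.55, 8.50 and 8.37 on KO arrays, against 8.17, 7.87, 8.12 and 7.99 on WT arrays. Every KO array lay above every WT array, and the lowest KO value stood 0.20 above the highest WT value. The change was 0.47 (SE 0.10, 95% interval 0.26 to 0.69, limma adjusted p = 0.0082). Apob (chr12:7977629-8016839) read 11.55, 11.65, 11.67 and 11.46 on KO arrays and 11.79, 11.35, 11.56 and 11.76 on WT arrays. The KO values fell inside the range of the WT values, which held both the highest and the lowest of the 8. Its change was -0.03 (SE 0.11, 95% interval -0.28 to 0.21, limma adjusted p = 0.896). That interval lies below those of Mttp and Apom and overlaps those of Apoc3 (0.15 to 0.51) and Apoh (0.13 to 0.49). Of the 4 risers, only Mttp was tested against Apob. Leaving out KO replicate 4, WT replicate 1 or WT replicate 4 turned the sign of the Apob change, to between 0.01 and 0.03.

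The difference between Mttp and Apob on each array was -2.95, -3.09, -3.17 and -3.09 in KO cells and -3.62, -3.48, -3.44 and -3.77 in WT cells. The groups did not overlap, and the difference shifted by 0.50 towards Mttp. A two-sided exact permutation test gave p = 0.0286, the smallest that 4 against 4 arrays allow, and after adjustment over the 4 pairs tested it was 0.0571 and did not pass. An adjusted p under 0.05 was possible only if most of the 4 pairs stood at that smallest value. The adjusted result therefore says nothing about the size of this shift. The rows have different probes, so the shift is read and the size of the difference is not.

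Apom (chr17:35128997-35131801), whose product rides mainly on high density lipoprotein and carries sphingosine 1-phosphate, read 7.75, 7.64, 7.69 and 7.67 on KO arrays, against 7.28, 7.19, 7.39 and 7.03 on WT arrays. The KO arrays were less spread (SD 0.05) than the WT arrays (SD 0.15), and the lowest KO value stood 0.25 above the highest WT value. The change was 0.47 (SE 0.10, 95% interval 0.26 to 0.68, limma adjusted p = 0.0078). Mttp and Apom stayed called without any 1 array, with limma adjusted p-values of at most 0.0309 for Mttp and 0.0288 for Apom. They were also the members called at an adjusted p under 0.01.

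Apoc3, whose product slows the clearance of triglyceride-rich particles, read 7.40, 7.44, 7.48 and 7.35 on KO arrays, against 7.03, 7.05, 7.16 and 7.11 on WT arrays. All KO values were above all WT values, with a gap of 0.19 between the groups. The change was 0.33 (SE 0.08, 95% interval 0.15 to 0.51, limma adjusted p = 0.0202). Leaving out KO replicate 2 or 3 or WT replicate 1 or 2 took the adjusted p to 0.0585, 0.0545, 0.0641 and 0.0523, at changes of 0.31 to 0.32.

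Apoh (chr11:108395297-108414396), also called beta-2 glycoprotein I, a plasma protein that binds phospholipid surfaces, read 11.297, 11.180, 11.225 and 11.276 on KO arrays, against 10.876, 10.857, 10.997 and 11.008 on WT arrays. The groups were apart, and the WT arrays formed a lower pair (replicates 1 and 2) and a higher pair. The change was 0.31 (SE 0.08, 95% interval 0.13 to 0.49, limma adjusted p = 0.0300). Leaving out KO replicate 1, 2 or 3 or WT replicate 1 or 2 ended the call, at adjusted p-values of 0.0863, 0.0540, 0.0576, 0.0882 and 0.0794 and changes of 0.28 to 0.33.

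**Figure D2:**
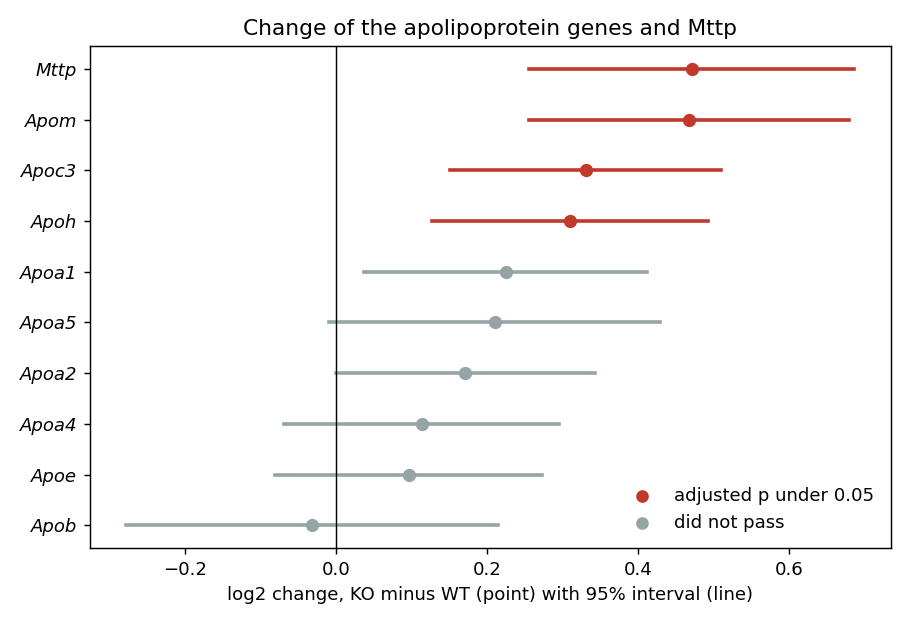
Log2 change, KO minus WT, of the 10 genes with its 95% interval, in order of size, in red where the limma adjusted p is under 0.05. Mttp and Apom lead at 0.47, Apoc3 and Apoh follow, and the interval of Apob runs from -0.28 to 0.21.

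The structural proteins of high density lipoprotein had smaller changes that did not pass the test. Apoa1 read 11.65, 11.45, 11.58 and 11.55 on KO arrays, against 11.43, 11.28, 11.35 and 11.28 on WT arrays. The groups were apart by a narrow margin of 0.03 between KO replicate 2 and WT replicate 1. Its change was 0.22 (SE 0.09, 95% interval 0.04 to 0.41, limma adjusted p = 0.113). Apoa2 (chr1:171221564-171226379) read 12.98, 12.88, 12.92 and 12.90 on KO arrays, against 12.79, 12.71, 12.76 and 12.73 on WT arrays. Its groups were also apart, and its spread within groups was the smallest of the 10 genes (SD 0.04 in KO and 0.03 in WT). The change was 0.17 (SE 0.08, 95% interval -5.6e-04 to 0.34, limma adjusted p = 0.187). With a variance that was allowed to depend on brightness both passed, at adjusted p-values of 0.0123 for Apoa1 and 0.0107 for Apoa2, while the changes themselves were as before and the share of all genes called, in either direction, was 17.0%, against 13.8% without that dependence.

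The other exchangeable apolipoproteins gave values without a call. Apoa4, which also circulates on high density lipoprotein and on chylomicrons, read 12.86, 12.76, 12.89 and 12.73 on KO arrays and 12.77, 12.64, 12.68 and 12.71 on WT arrays. The lower KO arrays, replicates 2 and 4, fell below WT replicate 1. Its change was 0.11 (95% interval -0.07 to 0.30, limma adjusted p = 0.433). Apoa5, a scarce plasma protein that promotes the action of lipoprotein lipase, read 6.60, 6.59, 6.52 and 6.72 on KO arrays and 6.40, 6.20, 6.57 and 6.42 on WT arrays. Only WT replicate 3 reached into the KO range. Its change was 0.21 (95% interval -0.01 to 0.43, limma adjusted p = 0.207). Apoe, the ligand by which remnant particles are taken up by the liver, read 6.72, 6.65, 6.64 and 6.58 on KO arrays and 6.56, 6.48, 6.57 and 6.60 on WT arrays. KO replicate 4 lay below WT replicate 4, and the change was 0.10 (95% interval -0.08 to 0.27, limma adjusted p = 0.503). For these 3 genes the intervals hold no change as well as rises of up to 0.30 (Apoa4), 0.43 (Apoa5) and 0.27 (Apoe).

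Over the 10 genes KO replicate 1 was the highest KO array for 6 genes and the lowest for none, and KO replicate 4 was the lowest for 5. WT replicate 2 was the lowest WT array for 7 genes and the highest for none, on average 0.10 below its group's mean. Within-group SDs of the 10 genes ran from 0.03 to 0.20, with the largest for Apob in WT cells.

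Some of these rows are among the brightest on the array. Apoa2 had 73 rows brighter than itself and Apoa4 80, of 41345, and they lay 0.82 and 0.90 below the highest value in the table. Of the 59 tested genes with a mean of 12 or more, 7 were called, their median size of change was 0.09 and none reached 2-fold. The largest change among them was 0.51, that of Ahsg, which encodes fetuin-A. Of the 363 genes between 10 and 12, a range that holds Apob, Apoa1 and Apoh, 94 were called, the median size was 0.17 and 6 reached 2-fold. Of the 1776 genes between 8 and 10, the range of Mttp, 440 were called and 43 reached 2-fold, with a median size of 0.18. Between 6 and 8, the range of Apom, Apoc3, Apoa5 and Apoe, 840 of 4334 genes were called and 106 reached 2-fold, with a median size of 0.17. The median SD within groups fell with brightness too, at 0.11, 0.10 and 0.05 in the ranges of 8 to 10, 10 to 12 and 12 or more. RMA values carry no flag for saturated probes, so whether a ceiling of the scanner compressed the changes of Apoa2 and Apoa4 was not tested.

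**Figure D3:**
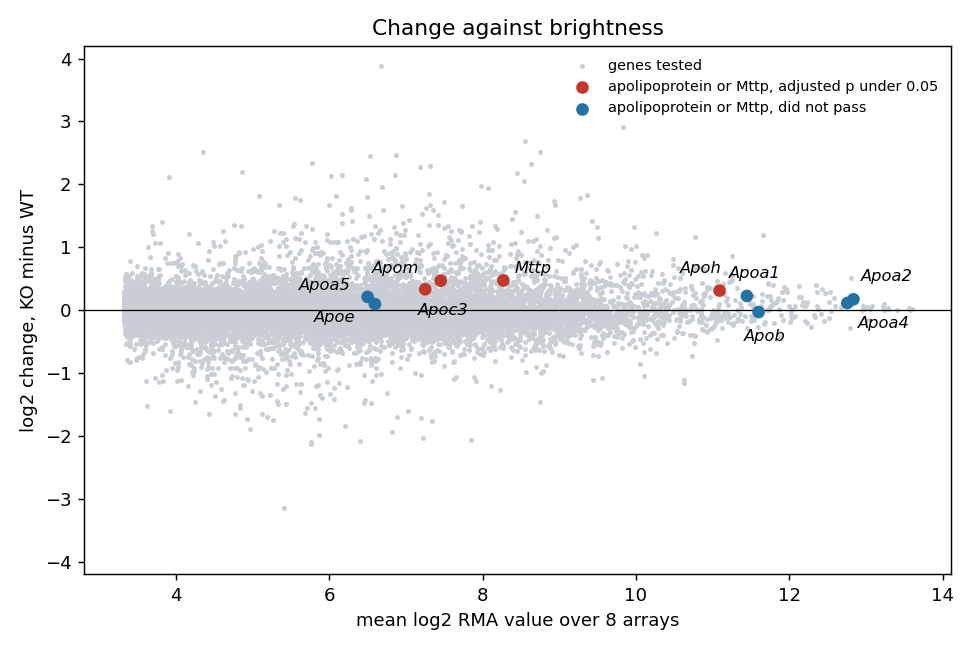
Log2 change, KO minus WT, against the mean log2 value over the 8 arrays for 15380 genes (grey), with the 10 genes in red where called and blue where not. The spread of changes narrows at the bright end, where Apoa2 and Apoa4 lie among 59 genes of which none reached 2-fold.

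The chromosome 9 cluster had positive changes in all 4 of its genes, of which Apoc3 was called. From Apoa1 (46228630 to 46230469) through Apoc3 (46233050 to 46235636) and Apoa4 (46240844 to 46243458) to Apoa5 (46268608 to 46271921), in GRCm38.p6, the changes were 0.22, 0.33, 0.11 and 0.21. The difference between Apoa4 and Apoa1 was 1.22, 1.31, 1.31 and 1.18 on KO arrays and 1.34, 1.36, 1.33 and 1.43 on WT arrays. The groups were apart and the difference shifted by -0.11, with an exact two-sided permutation p of 0.0286 and an adjusted p of 0.0571 over the 4 pairs, which did not pass. As for Mttp and Apob, this p was the smallest possible, and a pair alone could not pass after adjustment. Against Apoa1, Apoc3 shifted by 0.11 (exact permutation p = 0.257, adjusted p = 0.343) and Apoa5 by -0.01 (exact permutation p = 0.771, adjusted p = 0.771). The other protein-coding genes tested within 100 kb of the cluster, chosen by position after the members' values were seen, were Sik3 (0.27), Zpr1 (-0.04) and Bud13 (-0.11), and none was called. Around Apoe on chromosome 7 (19696244 to 19701310), the apolipoprotein genes Apoc1 and Apoc2 had changes of 0.22 and -0.13 without a call. Of 9 other genes tested within 100 kb there, 3 were called, all lower in KO cells: Nectin2 at -0.72 (limma adjusted p = 0.0011), Tomm40 at -0.39 and Relb at -0.38.

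**Figure D4:**
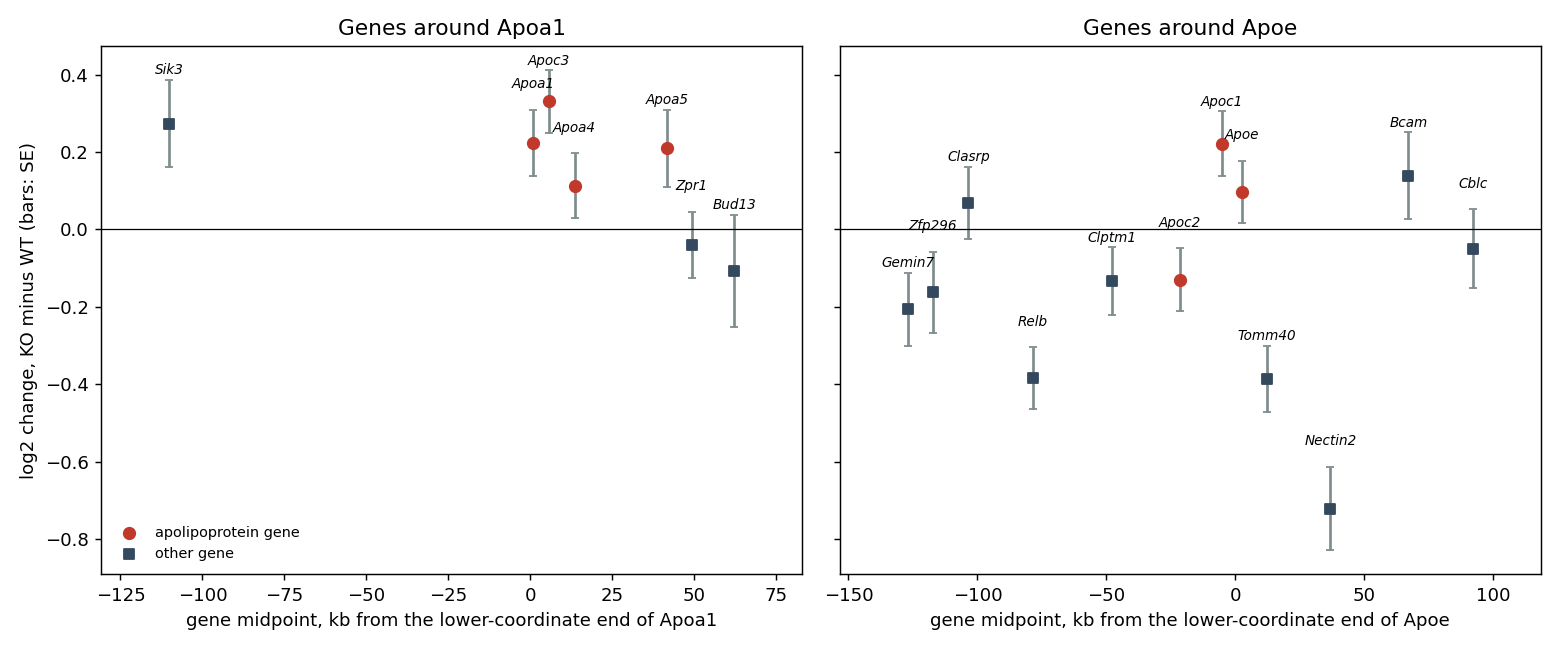
Log2 change, KO minus WT, with its SE for tested genes around Apoa1 (left) and Apoe (right), against distance in kb from the lower-coordinate end of that gene, in red for apolipoprotein genes and dark squares for others. All 4 genes of the chromosome 9 cluster lie above 0, at 0.11 to 0.33, and the lowest points on the right are Nectin2, Tomm40 and Relb.

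The profile over the 8 arrays was compared with that of Mttp, the member with the largest change, by the root mean square distance of log2 values set relative to each gene's WT mean. Among 15379 other genes B4gat1 was nearest (distance 0.04), followed by Proc, Ces1c, C4b and 1300017J02Rik (0.05 to 0.06), with changes of 0.43 to 0.53. The median distance of all genes was 0.40. Apom ranked 69th among them, Apoc3 326th and Apoh 513th, and Apob, at a distance of 0.37, ranked 6134th. Because values are set relative to the WT mean, the distance includes the difference in KO minus WT change. The ranks of the members follow the order of their changes, so they add no separate evidence of likeness to Mttp.

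Other genes of lipoprotein metabolism were grouped by role. The counts of each list stand beside 7.02% called higher and 6.76% called lower over all genes tested. By brightness, the share called in either direction was 8.34% (below 6), 19.4% (6 to 8), 24.8% (8 to 10), 25.9% (10 to 12) and 11.9% (12 or more). On the list of further apolipoproteins 2 of 10 tested genes rose and none fell, with a median change of 0.20. That list also holds Apobr, which encodes a receptor for apolipoprotein B. Apof, an inhibitor of lipid transfer found on plasma lipoproteins, had a mean of 8.85 ± 0.12 in KO and 8.02 ± 0.21 in WT cells (SD, n = 4 each) and rose by 0.83 (SE 0.12, limma adjusted p = 7.70e-04). Apon rose by 0.61 (SE 0.11, limma adjusted p = 0.0033). Apol9b and Apoo had changes of 0.68 and 0.40 with overlapping groups and did not pass.

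Of 24 tested genes of particle assembly and secretion 6 rose, 1 fell and 17 did not pass, with a median change of 0.08. The carboxylesterase gene Ces1d, whose product mobilises stored triglyceride for export, had values of 5.98 to 6.31 on KO arrays and 4.96 to 5.31 on WT arrays and rose by 1.08 (SE 0.11). Lpin1, which makes the diacylglycerol from which triglyceride is built, rose by 1.05 (SE 0.13), and the related lipid hydrolase gene Aadac by 0.93 (SE 0.08). Tm6sf2, needed for full lipidation of very low density lipoprotein, rose by 0.69 (SE 0.11, limma adjusted p = 0.0015). The genes of Apob mRNA editing did not pass, neither the deaminase gene Apobec1 (-0.11) nor its cofactor genes A1cf (0.54) and Rbm47 (0.09), and the KO and WT arrays overlapped for each.

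Of 9 tested genes of high density lipoprotein maturation 2 rose and 1 fell, with a median of 0.14. Lcat, which esterifies cholesterol on the particle, rose by 0.45 (SE 0.10), and the paraoxonase gene Pon1 by 0.39 (SE 0.09, limma adjusted p = 0.0178), a call that ended without KO replicate 1 (0.0586) or WT replicate 2 (0.0521). Abca1, the exporter that hands cholesterol to apolipoprotein A-I, read 7.59 to 8.06 on KO arrays and 8.38 to 8.61 on WT arrays and fell by 0.62 (SE 0.11, limma adjusted p = 0.0036). The receptor gene Scarb1 had a change of 0.28 (limma adjusted p = 0.0660).

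Among 10 tested lipases and their regulators 1 rose and 3 fell, with a median of 0.06. Lpl, the lipoprotein lipase gene, fell by 1.03 (SE 0.16), to values of 3.27 to 3.95 on KO arrays against 4.58 to 5.09 on WT arrays. The KO values lie around the array medians of 3.76 to 3.88, near the dim end, so the size of this fall is uncertain. Lpl had 2 rows, and the brighter is given. Angptl4, which encodes an inhibitor of lipoprotein lipase, fell by 0.81 (SE 0.09). The protease gene Furin rose by 0.37 (limma adjusted p = 0.0260) and Pcsk6 fell by 0.34 (limma adjusted p = 0.0497). The Furin call ended without KO replicate 1, 2 or 3 or WT replicate 1 or 2, at 0.0625 to 0.0814, and the Pcsk6 call ended without any 1 array other than WT replicate 4, at 0.0546 to 0.141. Lpl and Angptl4 are known to be expressed outside hepatocytes too, and endothelial, macrophage and stellate markers had list mean changes of -0.95, -0.73 and -0.50 on the same arrays. Whether these account for the lower Lpl and Angptl4 was not tested.

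Of 14 tested receptors and their regulators 4 rose and 3 fell, with a median of 0.11. The asialoglycoprotein receptor genes Asgr1 and Asgr2, which take up desialylated plasma proteins, rose by 1.39 (SE 0.10) and 0.91 (SE 0.09). Lrp8, a receptor for apolipoprotein E best known in the brain, and the fatty acid receptor gene Cd36 had changes of -1.03 (SE 0.13) and -1.10 (SE 0.14), both called lower. Asgr1 also stands on the mature hepatocyte list.

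Of 28 tested regulators of apolipoprotein genes 7 rose and 1 fell, with a median of 0.15. Hnf4a, a nuclear receptor known to drive many apolipoprotein promoters, had values of 8.03 to 8.28 on KO arrays and 6.92 to 7.38 on WT arrays and rose by 0.93 (SE 0.12, limma adjusted p = 3.41e-04). It stands on the mature hepatocyte list as well. Foxo1, a forkhead factor known to induce Mttp and Apoc3 when insulin is low, rose by 0.68 (SE 0.12), and the coactivator gene Ppargc1a rose by 1.11 (SE 0.14). Nr2f2, an orphan receptor known to repress some apolipoprotein promoters and abundant in venous endothelium, fell by 1.06 (SE 0.11), beside a list mean change of -0.95 for the endothelial markers.

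Other secreted plasma proteins of the hepatocyte gave a frame for the size of these changes. Of 20 tested genes 10 rose and none fell, with a median change of 0.26, beside 0.22 for the 10 lipoprotein genes. Serpina6, the corticosteroid-binding globulin gene, rose by 1.61 (SE 0.09), while the antithrombin gene Serpinc1, Ahsg and Itih1 rose by 0.50 to 0.52. When each array was centred on the mean of this list, Mttp and Apom kept a positive change of 0.14 and 0.13 without a call, the other 8 lipoprotein genes had negative changes, and Apoa4, Apob and Apoe were called lower (limma adjusted p = 0.0275, 0.0113 and 0.0153), as were 61.8% of all genes tested. When each array was centred on the mature hepatocyte list, all 10 had negative changes, of -1.20 for Apob to -0.69 for Mttp, and all 10 were called lower, as were 98.5% of all genes tested. The first centring lowers the change of every gene by 0.34 and the second by 1.16.

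**Figure D5:**
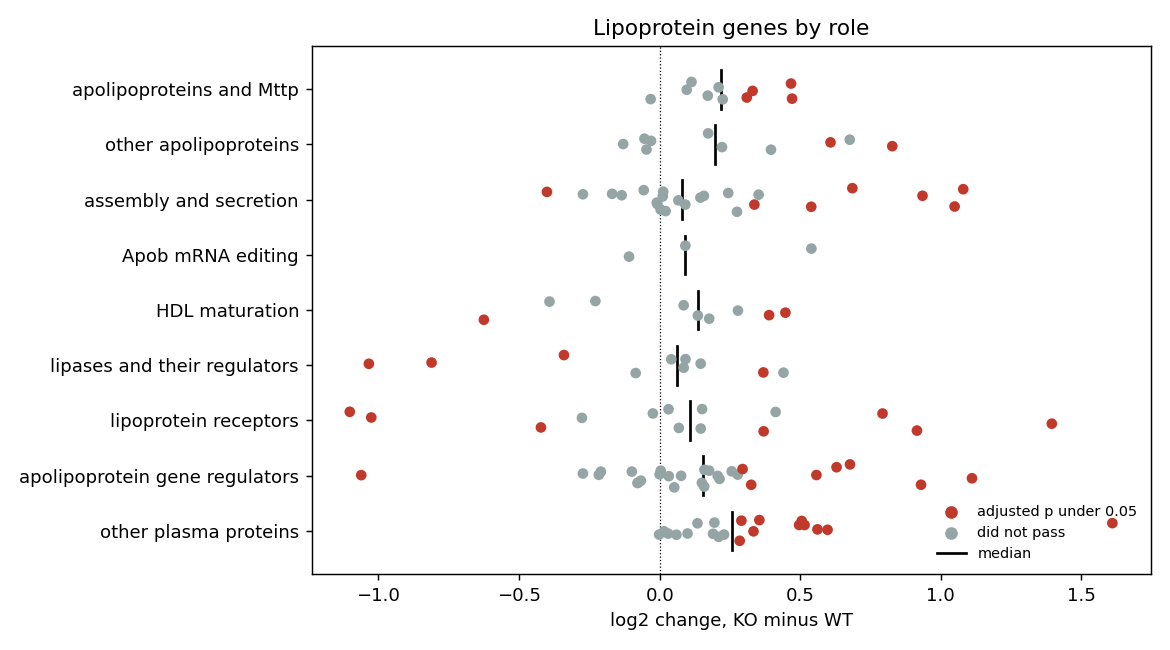
Log2 change, KO minus WT, of every tested gene in each role, in red where the limma adjusted p is under 0.05, with a black line at each median. The 10 lipoprotein genes span -0.03 to 0.47, while receptors and lipases reach from -1.10 to 1.39.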

How the data were processed

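Total RNA of 8 hepatocyte cultures was measured on 1 array each, 4 KO and 4 WT. The authors deposited log2 values made with RMA and oligo, according to the labels (per the submitters' processing notes); no version is stated there. RMA equalises the arrays, so a change shared by all genes is removed. Rows were named from the platform annotation, in which 23521 of 41345 rows had 1 symbol, 1814 several and 16010 none. The row of highest mean stood for each of 1082 genes with several.

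Genes with a mean above the 40th percentile of all rows (3.32) entered the KO against WT fit in limma 3.58.1 (R 4.3.3), which had 6 residual degrees of freedom and a prior worth 5.05; p-values were adjusted by Benjamini-Hochberg over 15380 genes. Changes are KO minus WT, SEs are limma's moderated ones and tests are two-sided. Arrays have no read depth, and 4 per group limit the precision. The procedure was tested on simulated data. Alternatives covered the dim-gene filter, normalization, variance model, replicate block, centring, stricter thresholds and leaving out each array.

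The genes and lists were chosen with earlier results of these data known. Named are the 10 members, the 4 genes of smallest p in each lipoprotein list, all called genes of a list with 5 or fewer, the 5 genes nearest to Mttp, and for cell type lists the 2 brightest; gene neighbours were added by position. The brightest members of the cholangiocyte, leukocyte and red cell lists were Sox9 (-0.12) and Krt19 (-0.24), Nkg7 (0.06) and Cd3e (-0.06), and Slc4a1 (-0.15) and Klf1 (-0.34). In the hepatocyte, endothelial, macrophage and stellate lists they were Alb and Cyp2e1 (0.41, called), Cdh5 (-2.03) and Lyve1 (-1.72), Cd68 (0.58, called) and Cd14 (-0.16), and Reln (0.99, called) and Ecm1 (-0.95). Figures were drawn in Python 3.11.15. Motifs were searched in RefSeq windows of 300 bases.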

Additional observations from a re-analysis of the deposited data

Results flagged for a closer look

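None of the 10 lipoprotein genes and none of the 4 pairs had an array far from the others of its group. Of 118 groups of 4 arrays examined, 6 did, about the 1 in 20 that chance gives. Ces1d read 5.98 on KO replicate 3, against 6.28 to 6.31 on the other KO arrays. Asgr1 read 8.74 on KO replicate 2, against 8.63 to 8.64. Itih1 read 9.98 on KO replicate 4, against 10.13 to 10.15. On WT replicate 1, Lpl read 5.09, against 4.58 to 4.67 on the other WT arrays, and Lrp8 read 7.12, against 6.91 to 6.92. Lyve1 read 7.90 on WT replicate 2, against 8.09 to 8.12. Each of these arrays stayed on its own group's side of the comparison.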

How the results depend on the processing

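The count of 4 lipoprotein genes called was the same, with the same 4 genes, under a stricter filter on dim genes, the mean of a gene's rows, cyclic loess, array weights and the replicate block (4 of the 10, with 2215 genes called in all against 2119). It was 3 with no filter on dim genes (without Apoh, adjusted p = 0.0607), 6 with an intensity trend, robust or not, and 2 with median centring, where Apoc3 (0.0583) and Apoh (0.0690) were lost. The share of all tested genes called moved too, from 13.8%. It was 7.47% with no filter, 17.0% with the trend (17.1% robust) and 10.5% with median centring. It also moved where the count stayed at 4. There it was 22.5% (stricter filter), 16.8% (array weights), 16.2% (cyclic loess), 14.4% (replicate block) and 13.4% (rows averaged per gene). The same count of 4 therefore stands beside different shares of all genes. At an adjusted p under 0.01 the count was 2, and none of the 10 reached 1.5-fold with a call, giving 0. Leaving out 1 array gave 2 to 4 of the 10, and 1448 to 2165 genes in all (9.41% to 14.1%), and 1071 genes were called at an adjusted p under 0.01. Without 1 array the Apob change ran from -0.12 to 0.026, with 0.0091, 0.026 and 0.015 without KO replicate 4, WT replicate 1 and WT replicate 4, and the Apoa5 minus Apoa1 shift from -0.063 to 0.037. The cause of these shifts was not tested.

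Centring on the mature hepatocyte list moved the median of all genes to -1.19, called 53 genes higher and 15154 lower, against 1080 and 1039, and called 10 of the 10 lower: Apoa1 -0.94, Apoa2 -0.99, Apoa4 -1.05, Apoa5 -0.95, Apoc3 -0.83, Apoe -1.07, Apoh -0.85, Apom -0.70 and Mttp -0.69 reversed, and Apob stood at -1.20. Centring on the other plasma proteins, with a median of -0.36 and 458 higher against 9499 lower, called 3, and reversed Apoa1 (-0.11), Apoa2 (-0.16), Apoa4 (-0.22), Apoa5 (-0.13), Apoc3 (-0.0049), Apoe (-0.24) and Apoh (-0.026). These shifts follow from the subtraction itself.

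The exact permutation test cannot go below 0.0571 with 3 against 4 arrays, nor below 0.125 over 4 same-numbered pairs, where the replicate block gave Mttp minus Apob the same shift of 0.50. Same-numbered KO and WT arrays had correlations of 0.02 to 0.26 in their deviations from the group means and not every array matched its own number best, so the labels' numbers were not taken as pairs. The block changed no call among the 10. Over the alternatives other than list centring, called genes ran from 2 to 5 for further apolipoproteins, 6 to 11 for assembly and secretion, 0 to 1 for mRNA editing, 2 to 5 for high density lipoprotein maturation, 2 to 5 for lipases, 6 to 8 for receptors, 5 to 9 for regulators and 6 to 13 for other plasma proteins. The share of all tested genes called ran from 7.47% with no filter on dim genes to 22.5% with the stricter filter. For 31 named genes of these lists no direction turned over the same alternatives, which leave out list centring. The lists and their alternatives were set after earlier results were known, and centring of single members was added after seeing the data.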

Other observations

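The Apoe row read 6.65 ± 0.06 in KO and 6.55 ± 0.05 in WT cells (SD, n = 4 each), with 7285 rows of the table brighter, although Apoe is known as a major hepatocyte transcript. Which transcripts its probes measure is not given in the sources used here.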
